A study of Astyanax mexicanus with 6 samples.

Results

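Pachon cave liver was compared with Surface liver in the Mexican tetra, Astyanax mexicanus, a fish with river-dwelling and cave-dwelling populations. The comparison used 4 of the 6 liver libraries of the study, Pachon 1 and 2 and Surface 1 and 2, chosen by their population label. The remaining pair came from Tinaja, another cave population, and entered the model only to help estimate the spread between libraries. Each library was made from polyA RNA of liver tissue with a strand-specific kit. The labels give no treatment, genotype, strain, age, sex or feeding state for either population, and do not tell whether the libraries are from separate fish. P-values therefore measure only the spread between these libraries, which may be technical.

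The liver of a fish makes most plasma proteins, stores glycogen and fat, makes bile acids and detoxifies absorbed compounds. Its mRNA pool is dominated by a few secreted-protein transcripts, so a shift in those few can move the share of every other gene. Cave populations of this species are eyeless, live on scarce and irregular food, and are known for large fat stores and resistance to starvation. Liver tissue is a mix of cells, and in bulk libraries fewer cells of a type and less RNA per cell cannot be told apart.

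The deposited table names genes by Ensembl identifier alone, and 0 of its 27420 identifiers could be paired with a gene symbol here. Liver markers, markers of other cell types and metabolic pathways could therefore not be examined. Genes are described by their measured levels, 4 of them by identifier and the others by rank.

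Library totals were 24809335 and 25945144 counts in Pachon 1 and 2, and 29521610 and 24702895 counts in Surface 1 and 2. Genes with at least 1 count numbered 19012 and 19332 in the Pachon libraries and 18904 and 18575 in the Surface libraries. Of the counts, 50% fell on 97 and 129 genes in Pachon 1 and 2, against 73 and 65 genes in Surface 1 and 2. The top 20 genes of each library held 31.7% and 26.5% of the counts in Pachon, against 33.5% and 35.6% in Surface. Both Pachon libraries thus spread their reads over more genes than either Surface library. Levels below are in CPM, read counts relative to library size after TMM scaling, which takes most genes as unchanged, and log2 changes are Pachon over Surface. The TMM factors were 1.21 and 1.35 in Pachon and 0.82 and 0.906 in Surface, so this scaling lowers every Pachon value relative to plain totals.

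Pachon liver differed from Surface liver in both directions and across all levels of abundance. Of 15282 genes with enough counts, 2585 were called at an adjusted p below 0.05 in edgeR's quasi-likelihood test, a share of 16.9%. Of these, 1345 were higher in Pachon (8.8% of the tested genes) and 1240 were lower (8.11%). With total-count scaling 4599 genes were called, 3928 higher and 671 lower in Pachon, and the median log2 change over all genes was 0.55, against -0.01 with TMM. The share of calls that were higher was 52% with TMM and 85.4% with total counts, so the balance of directions depends on the scaling. Of the TMM calls, 2008 were also called on the same side with total counts, and none was called on the opposite side.

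**Figure D1:**
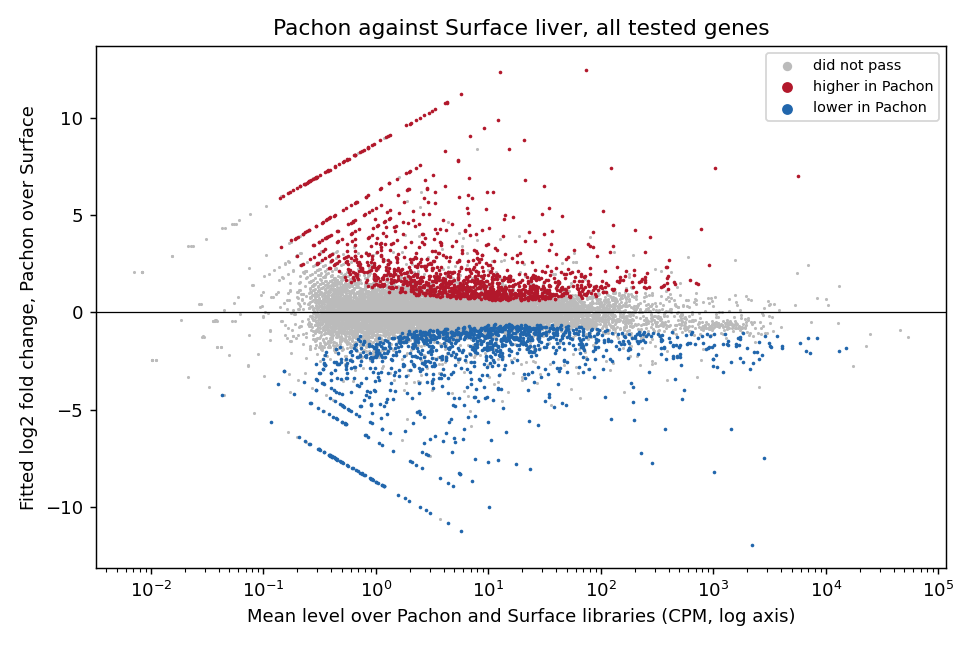
Each point is 1 of the 15282 tested genes, with its mean level over the 4 Pachon and Surface libraries (CPM, log axis) against its fitted log2 fold change, Pachon over Surface. Red points are the 1345 genes higher in Pachon, blue points the 1240 lower and grey points those not called. Slanted rows of points at the left are genes with few or no reads in 1 population, whose fitted fold depends on the prior count. At the right, called genes lie mostly below 0.

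The fitted size of the change varied widely among the called genes. Among the genes higher in Pachon, 264 changed by less than 2-fold, 564 by 2- to 4-fold, 217 by 4- to 8-fold and 300 by 8-fold or more. Among the genes lower in Pachon, the numbers were 186, 547, 212 and 295 in the same order. A stricter test, edgeR's glmTreat, asked whether the change was beyond 2-fold and not only different from 0. It called 746 genes (4.88% of those tested), 357 higher in Pachon (2.34%) and 389 lower (2.55%). The genes that were higher had a median level of 8.14 CPM in Pachon, against 2.52 CPM in Surface. The genes that were lower had a median of 3.56 CPM in Pachon, against 12 CPM in Surface. Most differing genes were thus of low or middle abundance in liver, as were most tested genes. Of the tested genes, 2759 averaged under 1 CPM, 7236 from 1 to 10 CPM and 4386 from 10 to 100 CPM. Another 724 averaged 100 to 1000 CPM and 177 averaged 1000 CPM or more. Of these last groups, 15.3% and 26.6% were lower at an adjusted p below 0.05, against 6.67% to 9.14% of the groups under 100 CPM. For higher genes the shares were 8.43% and 1.13%, against 7.9% to 9.6%.

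The genes higher in Pachon together held 7.36% and 8.11% of all counts in Pachon 1 and 2, against 1.23% and 1.4% in Surface 1 and 2. The genes lower in Pachon held 11% and 11.2% of the counts in Pachon 1 and 2, against 27.6% and 24.8% in Surface 1 and 2. These sums describe genes selected for their difference and are no test of it.

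For many other genes the data bounded the change. An approximate 95% interval of the log2 fold change lay wholly within 2-fold either way for 5461 genes, 35.7% of those tested, and 1 of them was also called. Another 7237 genes, 47.4%, were neither called nor bounded, so a change beyond 2-fold in them could be neither shown nor bounded with these libraries. Of the 12697 genes without a call, 1480 had a fitted change of 2-fold or more.

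Libraries of the same population were more alike than libraries of different populations. Over the 12523 genes that averaged 1 CPM or more, the median size of the log2 difference, with 1 CPM added to each value, was 0.38 to 0.41 over the 4 Pachon and Surface pairs. It was 0.18 between both Pachon libraries and 0.24 between both Surface libraries. A difference of 2-fold or more was seen in 15.2% to 16.7% of these genes between populations, in 2.55% within Pachon and in 4.28% within Surface. Surface libraries therefore differed from each other somewhat more than Pachon libraries did.

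After TMM scaling, the libraries of the populations did not overlap in 9741 of the tested genes (63.7%). With 2 libraries against 2, absence of overlap is common even where populations do not differ. The share is therefore no measure of how many genes differ. Both Pachon libraries were above both Surface libraries in 4865 genes (31.8%) and below both in 4876 (31.9%). All 2585 called genes were among these 9741, and the test asked for a larger gap than the absence of overlap.

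The calls depended on having both libraries of each population. Without Pachon 1 there were 1078 called genes, without Pachon 2 there were 937, without Surface 1 there were 1432 and without Surface 2 there were 1532. A set of 667 genes, 356 higher and 311 lower in Pachon, was called on the same side in all 4 of these fits. Its median size of log2 fold change was 2.91, against 1.38 in the other called genes. By contrast, 2323 of the 2585 calls were shared by DESeq2's Wald test and limma-voom on the same libraries. The set of calls was thus moved less by these tools than by leaving out a library. The tools kept all libraries and the same tested genes. Leaving out a library lowers the power of the test and changes the genes tested, so fewer calls follow from that as well.

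**Figure D2:**
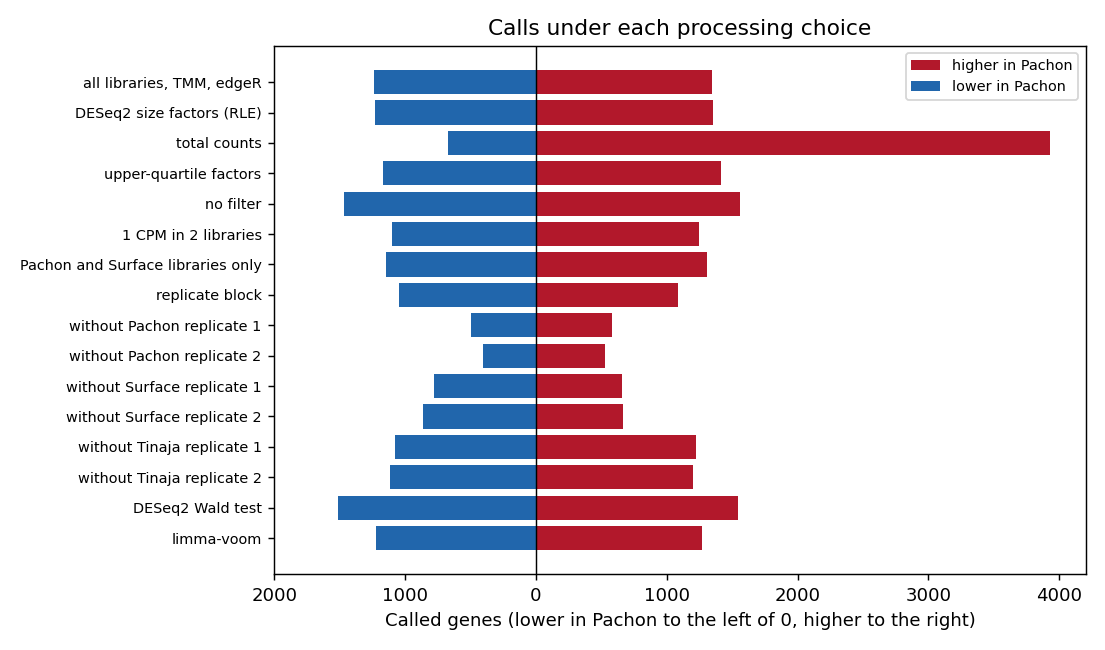
Bars give the number of called genes for each processing choice, lower in Pachon to the left of 0 and higher to the right. The top bar is the fit described above, with 1345 genes higher and 1240 lower. The bars shorten when a Pachon or Surface library is left out, and total-count scaling gives 3928 higher and 671 lower.

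The direction of change was related to abundance. Among the 177 genes that averaged 1000 CPM or more, 47 were lower in Pachon (26.6%) and 2 were higher (1.13%), while 128 passed no test. Of the 724 genes between 100 and 1000 CPM, 111 were lower (15.3%) and 61 higher (8.43%). Between 10 and 100 CPM, 401 of 4386 genes were lower (9.14%) and 421 higher (9.6%). Between 1 and 10 CPM, 483 of 7236 genes were lower (6.67%) and 643 higher (8.89%). Under 1 CPM, 198 of 2759 genes were lower (7.18%) and 218 higher (7.9%). With TMM the excess of lower calls at an adjusted p below 0.05 was thus seen above 100 CPM and not below it. With total counts it was seen only in the genes of at least 1000 CPM, with 33 lower and 10 higher. From 100 to 1000 CPM, 55 were lower and 145 higher with total counts. By the TMM test for a change beyond 2-fold, lower genes also exceeded higher ones from 10 to 100 CPM (85 against 65). They did so under 1 CPM as well (98 against 65), but not from 1 to 10 CPM (166 against 211).

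The median log2 fold change, Pachon over Surface, was -0.73 in the genes of at least 1000 CPM, with 149 of the 177 below 0. It was -0.30 in the next class, and 0.05 to -0.03 in the 3 classes below that. With total-count scaling the same medians were -0.15 and 0.28 in the 2 upper classes and 0.53 to 0.62 in the 3 lower ones. Relative to the median of all genes, the most abundant class stood at -0.71 with TMM and at -0.70 with total counts. A change of scaling shifts all genes alike, so this likeness follows from the computation and is no sign of stability.

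Calls among abundant genes were lost when a Pachon or Surface library was left out, as were calls among all genes. How many were lost depended on the library. Of the 47 lower genes, 7 kept their call in all 4 fits that left out a Pachon or Surface library. With Pachon 1 left out 10 genes were called lower, with Pachon 2 left out 8, with Surface 1 left out 20 and with Surface 2 left out 33. Abundant genes had a median SE of 0.37 on the log2 scale, against 0.22 between 10 and 100 CPM. Of the 177, 8 (4.52%) were bounded within 2-fold, against 2477 (56.5%) of the genes between 10 and 100 CPM. That class had the smallest median SE and the largest bounded share. The bounded share was 22.7% from 100 to 1000 CPM, 38.2% from 1 to 10 CPM and 1.74% under 1 CPM. The median SE of these classes was 0.31, 0.29 and 0.55 in the same order.

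**Figure D3:**
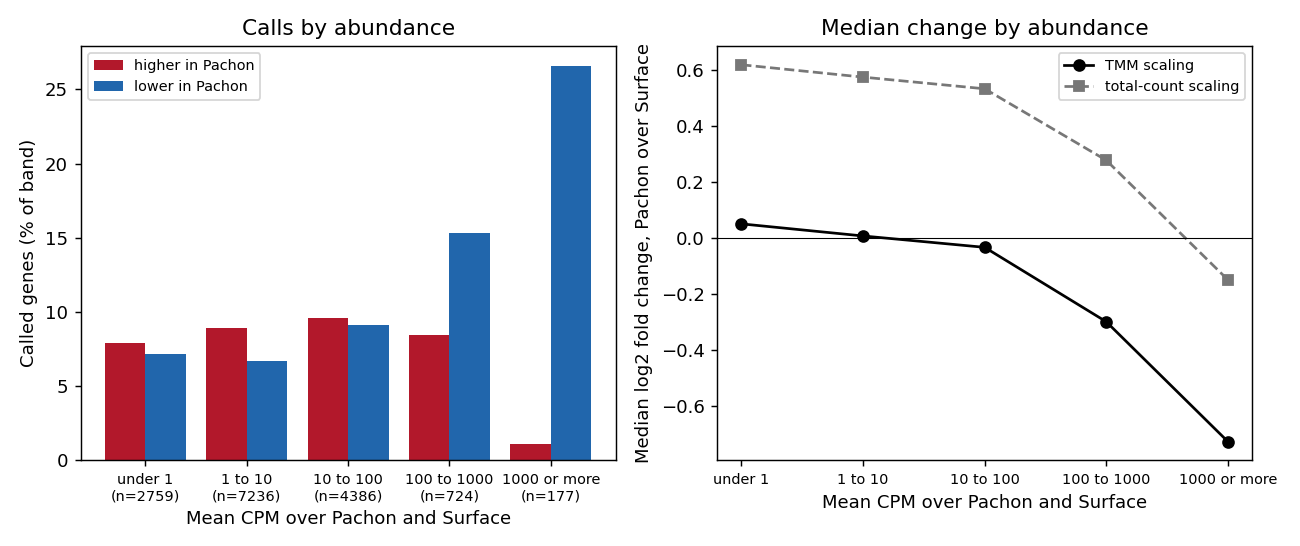
Left, the share of the tested genes of each abundance class (mean CPM over the 4 libraries) that was called higher (red) or lower (blue) in Pachon; 26.6% of the 177 most abundant genes were lower and 1.13% higher. Right, the median log2 fold change, Pachon over Surface, of each class with TMM (black circles) and with total-count scaling (grey squares). Both lines fall towards the abundant classes, and the scaling sets the shift between them.

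A large part of the liver mRNA pool differed between the populations, and few genes carried it. The differing part was computed as the summed size of the CPM differences over all genes, divided by the summed CPM of both sides. Identical levels give 0%. TMM-scaled levels do not sum to the same total in each library, so unequal totals also add to this value. Between the TMM-scaled Pachon and Surface means the differing part was 33.4%. Between single libraries it was 35.9% for Pachon 1 and Surface 1, 33.2% for Pachon 1 and Surface 2, 37% for Pachon 2 and Surface 1, and 32.2% for Pachon 2 and Surface 2. Between replicates it was 12.8% in Pachon and 17.3% in Surface. All 4 pairs between populations thus lay above both pairs within a population. No test was made, since 2 libraries against 2 give few splits. With total-count scaling, where all libraries sum to the same total, the value for the means was 27.7%. It was then 27.3% to 30.9% for the 4 pairs between populations, 13.9% within Pachon and 17.2% within Surface. With TMM and without the 34 genes that ranked in the top 20 of any of these libraries, the value for the means was 28.6%.

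With TMM, the 10 genes with the largest CPM differences made up 31.5% of the summed difference, 37 genes made up 50% and 100 genes made up 64.6%. Called genes made up 40.6% of it, so most of the difference lay in genes that passed no test. Of the 20 largest contributors, 15 were lower and 5 higher in Pachon. In 17 of these 20 the populations did not overlap (63.7% of all tested genes), and 10 of the 20 were called (16.9% of all tested genes), 9 of them lower.

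The largest contributor, not called, showed how abundant genes could differ without passing. It had 29419 and 33666 CPM in Pachon 1 and 2, against 65207 and 85050 CPM in Surface 1 and 2. On the log2 scale the change was -1.25 ± 0.41 (SE; adjusted p = 0.0753 by edgeR), with an approximate 95% interval from -2.2 to -0.3. The populations did not overlap for this gene, which was picked after its values were seen.

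In 3 of the 20 largest contributors the fold between replicates was larger than the fold between the population means, in both populations. The first of them had 33929 and 3445 CPM in Pachon 1 and 2, against 13538 and 1339 CPM in Surface 1 and 2. The second had 21159 and 2090 CPM in Pachon and 3860 and 418 CPM in Surface, and the third had 16235 and 1594 CPM in Pachon and 3959 and 375 CPM in Surface. In all 3 the first library of each population was 9.23 to 10.6 times the second, the populations overlapped, and edgeR's adjusted p was 0.567, 0.309 and 0.398. These genes were also picked after their values were seen.

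**Figure D4:**
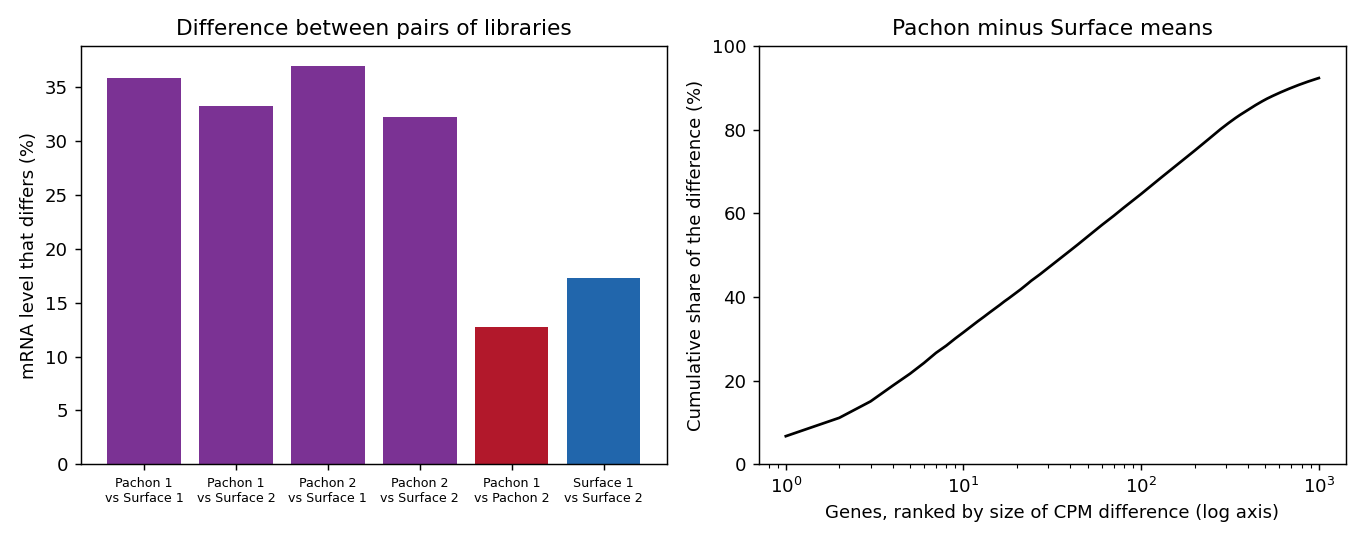
Left, the share of the summed TMM-scaled level that differs between 2 libraries. Bars are the 4 Pachon and Surface pairs (purple, 32.2% to 37%), the Pachon pair (red, 12.8%) and the Surface pair (blue, 17.3%). Unequal totals after scaling add to these shares. Right, the cumulative share of the summed difference between the Pachon and Surface means for up to 1000 genes ranked by the size of their CPM difference (log axis); 37 genes reach 50%.

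Abundant transcripts called higher in Pachon were few. Among the called genes, the largest rise in CPM was in a gene with 12342 and 10307 CPM in Pachon 1 and 2, against 60.7 and 114 CPM in Surface 1 and 2. The log2 change came to 7.02 ± 1.09 (SE; adjusted p = 0.00965 by edgeR). The second had 1712 and 2372 CPM in Pachon, against 20.1 and 4.07 CPM in Surface, a log2 change of 7.40 ± 0.86 (SE; adjusted p = 0.00331 by edgeR). Both averaged 1000 CPM or more over the Pachon and Surface libraries, the only genes called higher that did so. The third had 1375 and 1571 CPM in Pachon, against 79.2 and 71.6 CPM in Surface, a log2 change of 4.29 ± 0.58 (SE; adjusted p = 0.00466 by edgeR).

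The fourth, ENSAMXG00000041157, also had the largest rise among called genes that averaged at least 100 CPM in both populations. It had 1583 and 1493 CPM in Pachon 1 and 2, against 327 and 253 CPM in Surface 1 and 2. This was a log2 change of 2.41 ± 0.42 (SE; adjusted p = 0.00988 by edgeR), and it also passed the test for a change beyond 2-fold (glmTreat adjusted p = 0.0457). The fifth had 1151 and 1016 CPM in Pachon, against 366 and 416 CPM in Surface, a log2 change of 1.47 ± 0.28 (SE; adjusted p = 0.0133 by edgeR). It did not pass the test for a change beyond 2-fold (glmTreat adjusted p = 0.204).

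Of these 5 rises, the second and the third kept their call under all 15 alternatives. Leaving out Surface 1 gave the first an adjusted p of 0.0558 by edgeR, its highest. Leaving out Surface 2 gave ENSAMXG00000041157 a value of 0.0579, its highest. For the fifth it was 0.0832 without Pachon 1, its highest, 0.0639 without Pachon 2 and 0.066 without Surface 1. The log2 fold change of the second was 8.97 without Surface 1 and 6.66 without Surface 2, and its Surface libraries differed 4.95-fold.

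The largest called falls in CPM were in transcripts that were abundant in both populations. They do not stand for all abundant genes: of the 177 genes of at least 1000 CPM, 11 were lower by the test for a change beyond 2-fold. ENSAMXG00000018060, with the largest fall, had 7040 and 6084 CPM in Pachon 1 and 2, against 26595 and 20179 CPM in Surface 1 and 2. In log2 terms the change was -1.83 ± 0.36 (SE; adjusted p = 0.0146 by edgeR). The second had 5684 and 4980 CPM in Pachon, against 25511 and 16178 CPM in Surface, a log2 change of -1.97 ± 0.38 (SE; adjusted p = 0.0138 by edgeR). The populations did not overlap in either gene, as in every called gene.

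The third largest fall was in a gene with 3323 and 2140 CPM in Pachon, against 10177 and 13058 CPM in Surface. The fitted log2 change was -2.09 ± 0.41 (SE; adjusted p = 0.0157 by edgeR). The fourth had 2932 and 2368 CPM in Pachon, against 14367 and 6721 CPM in Surface, a log2 change of -1.99 ± 0.45 (SE; adjusted p = 0.0237 by edgeR). This value was -1.34 without Surface 1, the higher of its Surface libraries. The fifth had 4694 and 4836 CPM in Pachon, against 13629 and 10004 CPM in Surface, a log2 change of -1.31 ± 0.34 (SE; adjusted p = 0.0383 by edgeR).

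None of these 5 falls passed the test for a change beyond 2-fold (glmTreat adjusted p from 0.0865 to 0.518), and each lost its call when some libraries were left out. Without Pachon 1, edgeR's adjusted p of the first to the fifth was 0.105, 0.0996, 0.0678, 0.115 and 0.213. Without Pachon 2, where each had its highest value, it was 0.151, 0.137, 0.146, 0.177 and 0.23. Without Surface 1 it was 0.0594, 0.0567, 0.09 and 0.138 for the first, the second, the fourth and the fifth. Without Surface 2 it was 0.0581 for the third and 0.0601 for the fifth. For the fifth it was also 0.111 with total counts and 0.0858 with the replicate number as a block.

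By fold, genes were ranked among the called ones that averaged 10 CPM or more in the higher population, and the largest falls included 1 abundant gene. The lowest had 1.37 and 0.885 CPM in Pachon 1 and 2, against 4005 and 4755 CPM in Surface 1 and 2. On the log2 scale the change was -11.92 ± 0.82 (SE; adjusted p = 0.000457 by edgeR). By its counted reads, the gene was thus among the abundant ones in Surface liver and a minor one in Pachon liver, with 72 reads over both Pachon libraries.

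The second lowest had 0 reads in both Pachon libraries, against 15.4 and 7.6 CPM in Surface, and was at least 252-fold lower in Pachon than in Surface, taking 3 reads over both Pachon libraries as the floor. The third had 0 and 0.0286 CPM in Pachon, 1 read in all, against 22.8 and 18.1 CPM in Surface. The fourth had 0 and 0.0571 CPM in Pachon, 2 reads, against 17.6 and 11.2 CPM in Surface. These genes were close to unread in Pachon and moderately expressed in Surface.

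The Surface to Pachon ratio of pooled reads was 1332 for the third, with an exact 95% counting interval of 239 to 52671. The same ratio was 471 for the fourth, with an interval of 130 to 3901. The fifth had 0.0334 and 0.0286 CPM in Pachon, 2 reads, against 12.4 and 10.1 CPM in Surface, a ratio of 366 with an interval of 101 to 3031. Intervals and floors cover counting error only. All 5 were called (edgeR adjusted p from 0.000145 to 0.000941) and kept their call under all 15 alternatives.

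The highest rises by fold in the same ranking were in genes with at most 1 read in Surface. The highest had 177 and 121 CPM in Pachon 1 and 2, against 0 and 0.0447 CPM in Surface 1 and 2, 1 read in all. The second had 26.2 and 24.3 CPM in Pachon and 0 reads in both Surface libraries, at least 391-fold higher than the floor of 3 reads over both. The third had 13.1 and 9.88 CPM in Pachon and 0 reads in Surface, at least 176-fold higher. These 3 genes were called (edgeR adjusted p from 0.000441 to 0.000575) and kept their call under all 15 alternatives.

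The fourth had 8.41 and 40.6 CPM in Pachon, against a single read in Surface, 1199 times as much by pooled reads (interval 215 to 47400; adjusted p = 0.0116 by edgeR). The fifth had 14.8 and 22 CPM in Pachon, against a single read in Surface, 870 times as much (interval 156 to 34375; adjusted p = 0.0143 by edgeR). The Pachon libraries of the fourth differed 4.82-fold. Without Surface 1 its adjusted p by edgeR was 0.0687, the highest of its alternatives, without Surface 2 it was 0.0617, and it was 0.0569 with no filter on low counts. That of the fifth was 0.0755 without Surface 1, its highest, and 0.0587, 0.0747 and 0.0677 without Pachon 1, Pachon 2 and Surface 2. With no filter it was 0.0663.

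**Figure D5:**
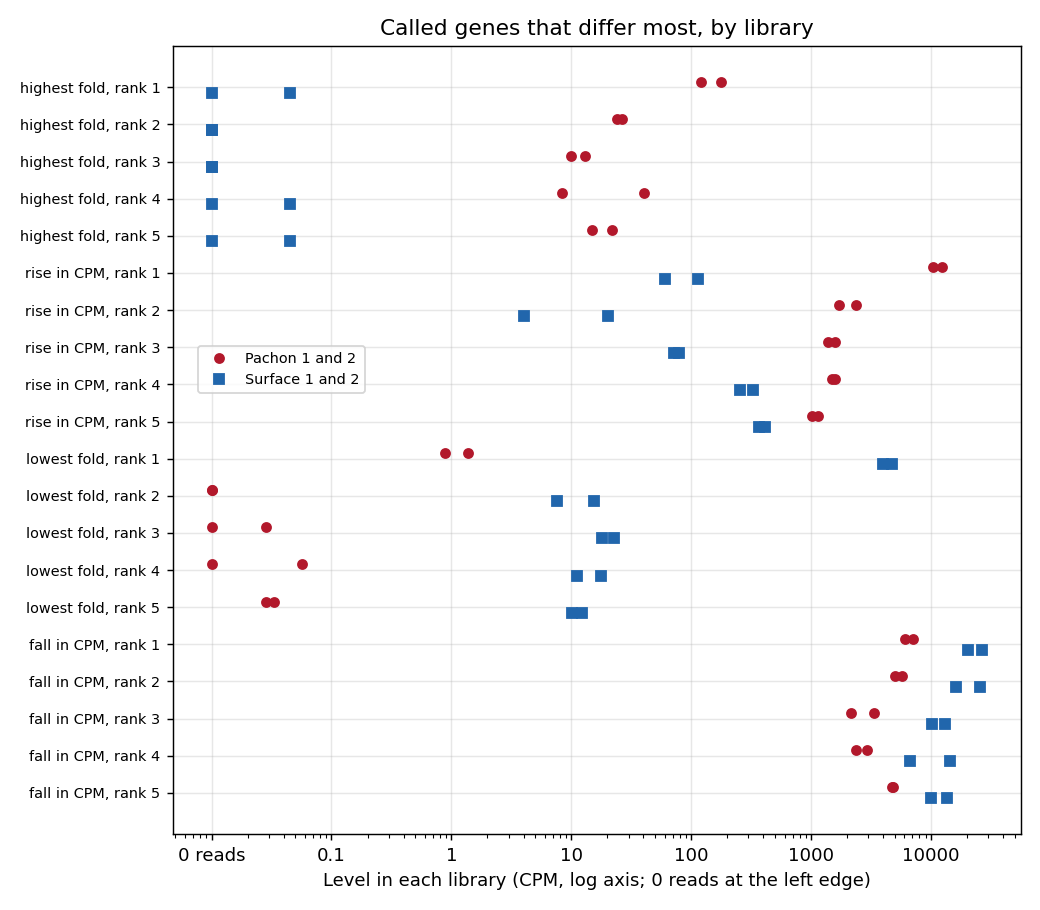
Levels in the Pachon libraries (red circles) and the Surface libraries (blue squares) on a log CPM axis, with 0 reads at the left edge, for the called genes ranked 1 to 5 by highest fold, rise in CPM, lowest fold and fall in CPM. The populations are apart in every row because only genes without overlap were ranked. The Pachon means of the 5 falls in CPM are 2.48- to 4.25-fold below Surface, and those of the 5 rises in CPM are 2.77- to 169-fold above it.

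The smallest p-value in each direction belonged to a gene of middle abundance. ENSAMXG00000030507, first among the higher genes, had 44.3 and 39.2 CPM in Pachon 1 and 2, against 0.289 and 0.447 CPM in Surface 1 and 2. The log2 change came to 6.82 ± 0.29 (SE; adjusted p = 0.000145 by edgeR). ENSAMXG00000036109, first among the lower genes, had 0.835 and 0.914 CPM in Pachon, against 26.1 and 26.6 CPM in Surface. This was a log2 change of -4.90 ± 0.23 (SE; adjusted p = 0.000145 by edgeR). Each kept its call under all 15 alternatives, with a log2 fold change from 6.53 to 7.37 for the higher gene and from -4.95 to -4.33 for the lower one.

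Genes read in 1 population and nearly unread in the other occurred in both directions. A gene was taken as on in a population when each library had 1 CPM or more, and as off when both libraries together had 3 reads or fewer. By this rule 65 genes were on in Pachon while off in Surface, and 52 showed the reverse. No read at all was found in Surface for 27 of the 65, or in Pachon for 25 of the 52. The 65 genes had a median level of 3.71 CPM in Pachon (1.31 to 149), and 8 reached 10 CPM. The 52 genes had a median of 2.49 CPM in Surface (1.18 to 20.4), and 6 reached 10 CPM. These were therefore mostly minor transcripts, and the most abundant ones are among the genes given above by fold. Of them, 64 of 65 and 52 of 52 were called, which follows largely from how they were chosen. The counting rule for reads that fit several near-identical gene copies is unknown here, so the counts of such copies are uncertain.

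At the threshold itself the values were close. Over 15 alternatives, the last gene called lost its call in 9, and the first gene not called gained a call in 6. The last gene called had 15.2 and 8.2 CPM in Pachon, against 37.2 and 21.1 CPM in Surface, a log2 change of -1.32 ± 0.36 (SE; adjusted p = 0.0499 by edgeR). The first gene not called had 24.9 and 7.77 CPM in Pachon, against 4.22 and 2.95 CPM in Surface, a log2 change of 2.18 ± 0.57 (SE; adjusted p = 0.05002 by edgeR). For the last gene called, the adjusted p was 0.214 without Pachon 2, its highest, 0.185 without Surface 1, 0.0952 without Tinaja 1 and 0.094 without Tinaja 2, and the log2 change was -0.92 and -0.85 in the first and second of these fits. For the first gene not called, it was 0.00624 without Pachon 2, with a log2 change of 2.81, against 1.11 without Pachon 1, and at most 0.202 over its alternatives.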

How the data were processed

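The authors deposited whole-number read counts per gene, unnormalised as far as the values show. Per the submitters' processing notes, bcl2fastq 2.20 and STAR (version not given in the sources used here) were used. No source used here gives the counter, its strand setting or its handling of multiply mapped reads, so near-identical copies and overlapping genes are uncertain. The table's name points to assembly build 2 and Ensembl release 96; coordinates were not used.

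Analysis of the counts in R 4.3.3 with edgeR 4.0.16 comprised filtering by expression (minimum count 10, 15282 of 27420 genes kept), TMM factors, and a robust quasi-likelihood F-test (two-sided) on all 6 libraries with a term per population and 3 residual degrees of freedom. P-values were adjusted by Benjamini-Hochberg over all tested genes. SEs are approximate, the size of the log2 fold change over the square root of F, and intervals use the fit's total degrees of freedom. SD is not given where both libraries are printed. The fit was run on counts simulated at its own dispersions with few genes changed. Such a run does not bear on the choice of scaling. DESeq2 1.42.0 and limma 3.58.1 were alternatives.

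The members and lists were chosen with earlier results of these data known. Called genes without overlap were named by identifier for the smallest p, or the largest CPM change at 100 CPM or more in both populations. By rank, the same genes gave the top 5 by fold (at least 10 CPM in the higher population) and by CPM change. The 3 most read genes on in 1 population only, and the pair at the threshold, were taken by rank without this filter. The 27 gene lists written by symbol could not be tested.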

Additional observations from a re-analysis of the deposited data

How the results depend on the processing

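Leaving out 1 library at a time, Tinaja included, gave 937 to 2318 called genes, 530 to 1224 higher and 407 to 1115 lower in Pachon. It gave 345 to 617 genes past 2-fold, 3130 to 5502 bounded within 2-fold and 8 to 47 lower among the 177 abundant genes. A population left with 1 library was assumed to vary like the others. Total counts in place of TMM gave 4599 called, 3928 higher, 671 lower, 1157 past 2-fold and 2762 bounded, since the median of all genes moved. With off at 0 reads, 27 genes were on in Pachon against Surface and 25 the reverse. With on at 5 CPM the numbers were 14 and 10. The differing part of the mRNA pool was 27.7% with total counts and 28.6% without the 34 genes in the top 20 of any Pachon or Surface library. The other scalings, filters, tools and fits kept every count within 1.5 times, with 2136 to 3061 called genes. Replicate numbers showed little pairing of the libraries across genes as a whole. The deviations of Pachon and Surface libraries with the same number had a correlation of 0.02 across genes. Such a value says little about small sets of genes. A few abundant genes described above were 9.23 to 10.6 times as high in the first library as in the second, in both populations. Whether this was linked to the replicate number was not tested. The replicate block gave 2136 called genes, 1086 higher and 1050 lower, with 691 past 2-fold, 4970 bounded and 39 abundant genes lower. No named gene changed sign under an alternative, and 633 of the 2585 calls, 350 higher and 283 lower, held under all 15. Every fit with a library left out gave fewer calls. Whether more libraries or more depth would give more calls was not tested.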
